A study of Mus musculus with 36 samples.

Results

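AP-1 is a family of transcription factors built from pairs of basic leucine zipper (bZIP) proteins. The 9 genes described here were picked by name: Fos, Fosb, Fosl1 and Fosl2 of the FOS family, Jun, Junb and Jund of the JUN family, and Atf3 and Batf of the ATF and BATF families. They are 9 of the 55421 genes in the count table, each has 1 row there, and all 9 passed the filter on low counts that left 19478 genes for testing. Slices of the right hippocampus came from C57BL/6 wild-type (WT) mice and from T41B mice (Line 41), an amyloid model that carries human APP bearing both the Swedish and the London mutation, driven by a Thy1 promoter that gives expression mainly in neurons. Mice of both genotypes were gavaged with vehicle (VEH) or with BD10-2, which partially activates TrkB and TrkC, receptors for neurotrophins. Dosing lasted 3 months, starting at 13 months and ending at 16 months. A slice then had theta-burst stimulation (STIM), in 3 rounds of 10 bursts, each burst holding 4 pulses at 100 Hz, or a sham procedure of the same length (noSTIM), and was frozen directly after it. The groups held 4 mice each with vehicle, 3 WT mice with BD10-2 and 5 T41B mice with BD10-2, for sham and again for stimulated slices, and 14 of the 18 mice gave both slices.

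FOS proteins cannot pair with themselves and bind DNA as partners of a JUN protein, whereas JUN proteins can also pair with each other. The pairs recognise the TPA response element (TRE) and, with ATF partners, the cyclic AMP response element (CRE). In hippocampal neurons Fos and Fosb are transcribed quickly after synaptic activity through calcium and MAP kinase signalling, and their RNA is short-lived. Fosl1 and Fosl2 encode the later and more lasting FRA-1 and FRA-2, Atf3 is a stress-response gene, and Batf encodes a small factor without an activation domain that is best known from immune cells. The values below are gene totals, so full-length FosB and its truncated form ΔFosB were not separated.

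To show what lies in front of these genes, the 250 bases before the RefSeq start were read for the founding pair Fos and Jun and for Atf3 and Batf, which differed most between the genotypes. A window was found for 8 of the 9 genes, and Fosl1 had none. The windows are on GRCm38.p6, each printed 5′ to 3′ on the gene's own strand, and capitals mark motif matches: Fos at chr12:85473640-85473889 (plus strand), Jun at chr4:95052223-95052472 (minus), Atf3 at chr1:191183334-191183583 (minus) and Batf at chr12:85686470-85686719 (plus).
Fos: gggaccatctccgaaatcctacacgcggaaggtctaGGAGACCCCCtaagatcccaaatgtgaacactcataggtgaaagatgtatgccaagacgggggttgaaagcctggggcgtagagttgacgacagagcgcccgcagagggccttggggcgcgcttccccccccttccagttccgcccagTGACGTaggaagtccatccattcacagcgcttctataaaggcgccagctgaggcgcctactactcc
Jun: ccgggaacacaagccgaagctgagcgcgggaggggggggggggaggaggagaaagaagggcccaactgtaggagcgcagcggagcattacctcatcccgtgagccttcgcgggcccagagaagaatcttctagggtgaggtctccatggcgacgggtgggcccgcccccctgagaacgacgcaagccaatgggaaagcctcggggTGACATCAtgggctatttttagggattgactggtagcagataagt
Atf3: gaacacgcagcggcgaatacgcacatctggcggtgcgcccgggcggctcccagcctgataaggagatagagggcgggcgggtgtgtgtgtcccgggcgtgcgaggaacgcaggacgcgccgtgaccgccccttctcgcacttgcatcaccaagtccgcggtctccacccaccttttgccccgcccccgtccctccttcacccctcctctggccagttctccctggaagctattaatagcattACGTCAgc
Batf: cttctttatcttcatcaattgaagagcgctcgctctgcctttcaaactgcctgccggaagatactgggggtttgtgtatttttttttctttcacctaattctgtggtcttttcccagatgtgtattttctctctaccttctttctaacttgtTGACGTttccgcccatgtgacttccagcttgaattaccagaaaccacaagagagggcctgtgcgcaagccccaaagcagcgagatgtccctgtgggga
Both strands were searched for the TRE (TGACTCA), the TGACNTCA form of which the CRE is the version with G at N, the shorter CRE core TGACGT, the CArG box bound by SRF, and a site for NF-kappaB. The core lies inside the CRE, so these searches overlap. The capitals in Fos are an NF-kappaB site match 214 to 205 bases before the start (on the opposite strand) and a CRE core at 66 to 61. Those in Jun are a TGACNTCA match at 45 to 38, and those in Atf3 and Batf CRE cores at 8 to 3 (on the opposite strand) and at 98 to 93. In the windows not printed, NF-kappaB site matches lay at 188 to 179 in Fosb (opposite strand) and, overlapping each other, at 182 to 173 and 181 to 172 (opposite strand) in Fosl2. No TRE, CRE or CArG box letters were found in the 8 windows. For Junb and Jund the bases after the RefSeq start were not found in a GENCODE transcript. The Jund window ends at chr8:70697738, before the GENCODE gene start at 70698949. The Atf3 and Fosl2 windows lie inside their GENCODE gene spans. Whether these windows lie at the starts used in the slices was not tested. Of 32851 promoter windows of this length, 4.46% held a TRE, 1.55% a CRE, 1.47% a CArG box, 7.49% a TGACNTCA, 6.47% a CRE core and 3.9% an NF-kappaB site. A match is a stretch of letters, not evidence of binding.

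Library totals ran from 11597554 to 28125842 expected counts, and 4 combinations of mouse and stimulation had 2 libraries that were added. Both libraries of the stimulated slice of T41B Mouse1592 carry the same labels but differed in Thy1, the promoter gene of the transgene, at 918 and 1940 CPM (counts scaled to library size), so counts of called genes were also made without the lower one. Every count of AP-1 genes called was the same without it, except that of T41B against WT mice in stimulated vehicle slices, which was 2 in place of 1. Brain cell types were checked with 6 markers each, none of which marks the hippocampus itself. Summed neuron markers ran from 1850 to 3870 CPM, those of astrocytes from 6690 to 12400 CPM and those of microglia from 102 to 779 CPM. Neutrophil markers summed to at most 0.562 CPM, with Camp and Ly6g at 0 in 31 of 32 samples each, and T cell markers to at most 3.11 CPM. Choroid plexus markers ran from 13.3 to 1200 CPM, both within the stimulated WT vehicle group.

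The 9 genes differed widely in level. Scaled to exon length, the median over 32 samples was 195 CPM per kb for Fos, 98.8 for Jund, 92 for Junb, 75.9 for Jun, 29.4 for Fosb, 20.5 for Atf3, 14 for Fosl2, 4.95 for Fosl1 and 0.799 for Batf. The ranges of neighbours in this order overlapped throughout. In sham slices alone Fosl1, at 0.905 to 3.04 CPM per kb, lay below every Fosl2 value (8.02 to 14.9). Batf had 1 to 30 counts per sham sample and up to 102 in a stimulated one, so its sham levels are imprecise.

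**Figure D1:**
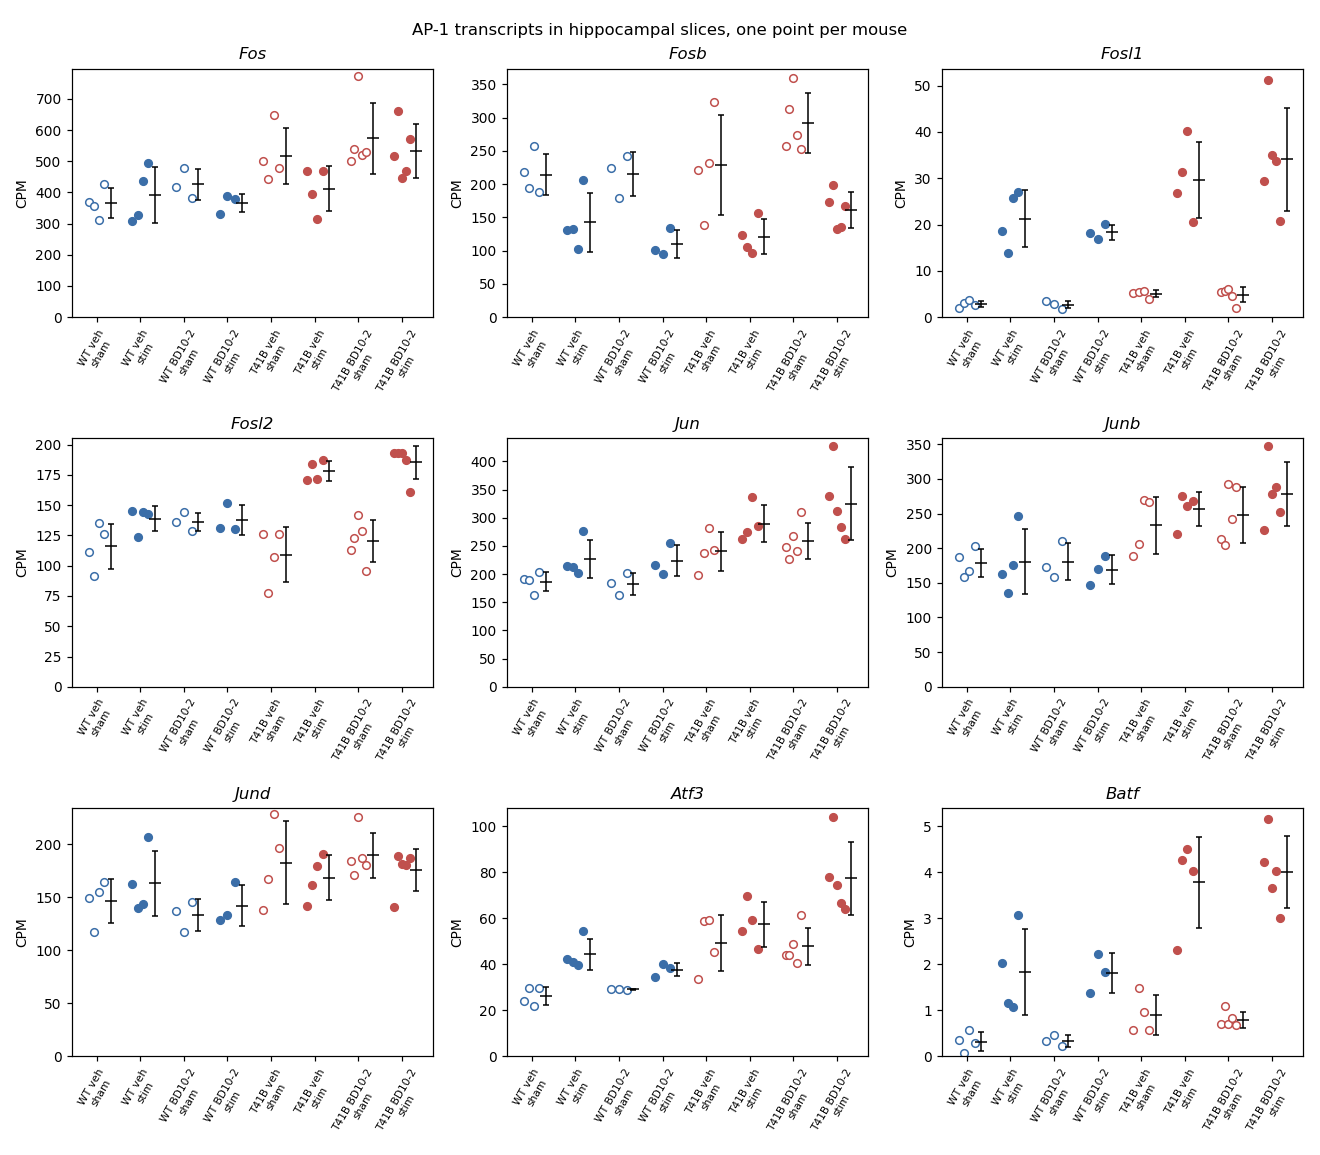
CPM of each AP-1 gene (linear y axis from 0) in the 8 groups (x axis), open circles for sham and filled for stimulated slices, blue for WT and red for T41B mice, 1 point per mouse; black bars show mean and SD. Fosl1 and Batf are low in every sham group and higher in every stimulated one, Fosb is lower in most stimulated slices, and Fos shows overlapping sham and stimulated groups.

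The first question was which AP-1 genes differed between stimulated and sham slices. Fosl1 and Batf were higher in all 4 combinations of genotype and treatment, Fosb was lower in 3 of them, and Fos, the classical activity marker, was called in none. Of the 9 genes, 3 were higher and 0 lower in WT vehicle mice, where 12.3% of all genes tested were called, and 3 were higher and 1 lower in T41B vehicle mice, where 21.6% were called. With BD10-2, 2 were higher and 1 lower in WT mice (8.87% of all genes called), and 5 were higher and 1 lower in T41B mice (22.9% of all genes called). In the mean of the 4 combinations 5 were higher and 1 lower, beside 46.8% of all genes called. The median log2 fold change of the 9 genes in that mean was 0.293, against -0.034 over all genes tested. The test was edgeR's quasi-likelihood F test with Benjamini-Hochberg adjustment over all genes, and a gene was called at an adjusted p under 0.05.

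Fosl1 (ENSMUSG00000024912, GRCm38 chr19:5447547-5455946, plus strand) encodes FRA-1, a FOS protein without the strong activation domain of Fos. In vehicle WT mice it lay at 2.08, 2.6, 3.03 and 3.65 CPM in sham slices and at 13.9, 18.5, 25.7 and 27 CPM in stimulated ones. In vehicle T41B mice the sham values were 3.94, 5.25, 5.43 and 5.74 CPM and the stimulated values 20.6, 26.8, 31.3 and 40.1 CPM. Every stimulated slice was above every sham slice of its group, and the same held with BD10-2. There WT mice had 1.84, 2.92 and 3.42 CPM in sham and 16.9, 18.1 and 20.1 CPM in stimulated slices. T41B mice had 2.07, 4.62, 5.36, 5.75 and 6.18 CPM in sham and 20.8, 29.4, 33.8, 35 and 51.2 CPM in stimulated slices. On the log2 scale the difference was 2.91 ± 0.297 in WT vehicle (SE, edgeR adjusted p = 3.91e-08), 2.54 ± 0.276 (5.82e-08) in T41B vehicle, 2.71 ± 0.327 (1.05e-06) in WT BD10-2 and 2.82 ± 0.249 (5.95e-10) in T41B BD10-2 mice. Within the 14 mice with both slices it was higher after stimulation in 14, by 4.61 to 10.4 times with a median of 6.39.

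Fosl2 (ENSMUSG00000029135, chr5:32135801-32157842, plus strand), which encodes FRA-2 and is also expressed in glia, rose in T41B mice. Vehicle T41B sham slices held 77.7, 107, 126 and 126 CPM and stimulated ones 171, 172, 184 and 187 CPM. With BD10-2 the T41B values were 95.9, 113, 123, 129 and 142 CPM in sham and 161, 187, 193, 193 and 193 CPM in stimulated slices. Neither pair of T41B groups overlapped, and Fosl2 differed by a log2 fold change of 0.71 ± 0.125 (edgeR adjusted p = 9.92e-05) with vehicle and 0.62 ± 0.111 (9.52e-05) with BD10-2. In vehicle WT mice Fosl2 lay at 91.8, 111, 126 and 135 CPM in sham and at 124, 143, 144 and 145 CPM in stimulated slices, which overlap. The WT log2 fold changes were 0.26 ± 0.124 (0.181) with vehicle and 0.01 ± 0.143 (0.98) with BD10-2. The difference between the genotypes in this response was 0.45 ± 0.176 with vehicle (edgeR unadjusted p = 0.0158, adjusted p = 0.507) and 0.61 ± 0.181 with BD10-2 (unadjusted p = 0.00217, adjusted p = 0.587), so it was not called in either. In the mean of the 4 combinations Fosl2 differed by 0.40 ± 0.0632 (6.35e-06).

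Fosb (ENSMUSG00000003545, chr7:19302696-19310051, minus strand) moved the other way. In vehicle T41B mice it lay at 139, 221, 231 and 323 CPM in sham and at 97, 106, 123 and 157 CPM in stimulated slices. With BD10-2 T41B mice had 253, 257, 274, 313 and 360 CPM in sham and 132, 136, 167, 173 and 198 CPM in stimulated slices, without overlap. WT mice with BD10-2 had 179, 224 and 242 CPM in sham and 94.6, 101 and 134 CPM in stimulated slices, also without overlap. Fosb fell by 0.92 ± 0.208 on the log2 scale in T41B vehicle (edgeR adjusted p = 0.00168), by 0.85 ± 0.185 in T41B BD10-2 (0.000898) and by 0.97 ± 0.24 in WT BD10-2 mice (0.00847). Without WT Mouse1565, whose 2 sham libraries gave 181 and 282 CPM, the adjusted p in WT BD10-2 mice was 0.106. In WT vehicle mice sham values of 188, 194, 218 and 257 CPM stood against 102, 131, 133 and 206 CPM, a log2 fold change of -0.59 ± 0.207 with an edgeR adjusted p of 0.061. There the call depended on the fit: with the mouse as a block the adjusted p was 0.0175, and without Mouse1524, the 1 of 14 mice in which Fosb was higher after stimulation, it was 0.0104. Over the 14 mice the stimulated to sham ratio ran from 0.397 to 1.1 with a median of 0.552.

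Fos itself was the most abundant of the 9 genes and was called in no stimulation comparison. Over 16 sham samples it ran from 311 through a median of 478 to 774 CPM, and over 16 stimulated samples from 308 through 443 to 663 CPM. These ranges nearly coincide, and Fos was lower in the stimulated slice in 11 of 14 mice and higher in 3. Its log2 fold change was 0.10 ± 0.161 in WT vehicle, -0.33 ± 0.161 in T41B vehicle, -0.22 ± 0.186 in WT BD10-2 and -0.10 ± 0.144 in T41B BD10-2 mice, and -0.14 ± 0.0817 in the mean (edgeR adjusted p = 0.171).

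**Figure D2:**
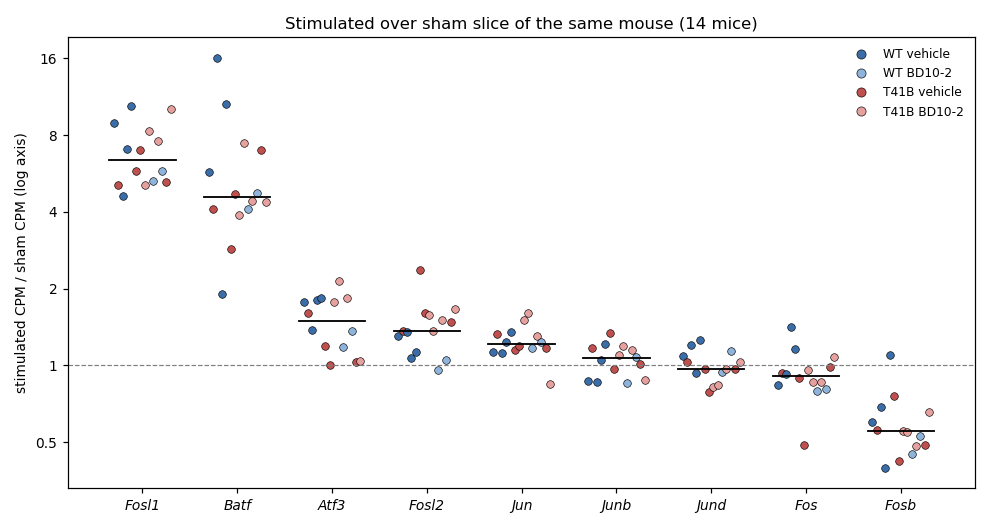
Stimulated over sham CPM in the same mouse (log y axis) for the 9 genes (x axis), 1 point per mouse for 14 mice, coloured by genotype and treatment; black lines are medians and the dashed line is a ratio of 1. Fosl1 and Batf are above 1 in 14 of 14 mice, with medians of 6.39 and 4.57, and Fosb is below 1 in 13.

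Of the JUN family, which supplies the partners of the FOS proteins, only Jun was called for stimulation. Jun was higher in the stimulated slice in 13 of 14 mice, by a median ratio of 1.21 within a range of 0.845 to 1.61. Over 16 sham samples it ran from 163 through a median of 215 to 310 CPM and over 16 stimulated samples from 201 through 268 to 428 CPM, so the groups overlapped. The mean log2 fold change was 0.29 ± 0.0676 (edgeR adjusted p = 0.000744). Among single combinations it was called in T41B BD10-2 mice, at 0.33 ± 0.119 (0.0419), and lost there without any 1 of Mouse1557, Mouse1563, Mouse1564 and Mouse1570 (adjusted p up to 0.224). That call was also lost with only the groups compared (edgeR adjusted p = 0.0686) and with 1 library per mouse and stimulation (0.119). Junb, an activity-regulated JUN protein, was higher in 9 mice and lower in 5, with a mean log2 fold change of 0.06 ± 0.0798 (0.591). Jund, the most constantly expressed JUN gene in most tissues, was higher in 6 and lower in 8, with 0.01 ± 0.0724 (0.944). In the 4 single combinations Junb ran from -0.10 ± 0.181 to 0.17 ± 0.14 and Jund from -0.11 ± 0.142 to 0.16 ± 0.143, and Jun outside T41B BD10-2 mice from 0.27 ± 0.133 to 0.29 ± 0.154.

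Batf and Atf3, the bZIP partners outside both families, were higher after stimulation. Batf (ENSMUSG00000034266, chr12:85686669-85709087, plus strand) had 0.0721, 0.289, 0.356 and 0.566 CPM in sham and 1.08, 1.16, 2.04 and 3.07 CPM in stimulated slices of vehicle WT mice. In vehicle T41B mice these were 0.563, 0.577, 0.957 and 1.48 CPM against 2.32, 4.03, 4.26 and 4.51 CPM. Sham and stimulated values did not overlap in these or in the BD10-2 groups. With BD10-2 Batf ran from 0.217 to 0.47 CPM in sham and from 1.38 to 2.23 CPM in stimulated WT slices, and from 0.689 to 1.09 and from 3.01 to 5.15 CPM in T41B slices. The log2 fold changes were 2.46 ± 0.411 (edgeR adjusted p = 8.55e-05) in WT vehicle, 2.05 ± 0.339 (4.39e-05) in T41B vehicle, 2.38 ± 0.432 (0.00036) in WT BD10-2 and 2.33 ± 0.307 (8.33e-07) in T41B BD10-2 mice. All 14 mice had more Batf in the stimulated slice, by 1.91 to 16.1 times, with as little as 1 count in a sham sample behind the widest ratio.

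Atf3 (ENSMUSG00000026628, chr1:191170296-191218039, minus strand) rose from 21.9, 24, 29.7 and 29.8 CPM in sham to 39.6, 40.9, 42.5 and 54.5 CPM in stimulated slices of vehicle WT mice. In T41B mice with BD10-2 it rose from 40.7, 44, 44.1, 48.7 and 61.5 CPM to 63.9, 66.8, 74.7, 77.9 and 104 CPM. Neither pair overlapped, and the log2 fold changes were 0.75 ± 0.167 (edgeR adjusted p = 0.00249) and 0.69 ± 0.146 (0.000648). In vehicle T41B mice the sham values of 33.7, 45.3, 58.8 and 59.3 CPM overlapped the stimulated values of 46.5, 54.3, 59.3 and 69.8 CPM, with a log2 fold change of 0.22 ± 0.163 (0.364). In WT mice with BD10-2 Atf3 lay at 28.8, 29.2 and 29.4 CPM in sham and 34.5, 38.6 and 40.2 CPM in stimulated slices, which do not overlap, with 0.37 ± 0.19 (0.245). With only the groups compared Atf3 was called there (edgeR adjusted p = 0.0233). In the mean of the 4 combinations Atf3 differed by 0.51 ± 0.0836 (1.12e-05). The genotype difference in this response was -0.53 ± 0.233 with vehicle (adjusted p = 0.528) and 0.32 ± 0.239 with BD10-2 (adjusted p = 1), neither called.

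Cell type markers moved with stimulation too. In the mean of the 4 combinations 5 of 6 microglia markers were lower and 1 higher (median log2 fold change -0.891), 5 of 6 neuron markers were lower (-0.243) and 5 of 6 astrocyte markers were higher (0.255). Of 6 endothelium markers 2 were higher and 2 lower (0.248). In WT vehicle mice all 6 choroid plexus markers were higher after stimulation (median log2 fold change 4.27), with summed levels of 15.1 to 20.2 CPM in sham and 13.3 to 1200 CPM in stimulated slices, beside the calls of Fosl1, Batf and Atf3 there. None of the 6 was called in the other 3 combinations. In WT BD10-2 mice, where Fosl1 and Batf were called too, these markers summed to 18.8 to 21.4 CPM in sham and 18 to 19.6 CPM in stimulated slices. Their part in the AP-1 results was not tested, and in bulk slices fewer cells of a type and less RNA per cell cannot be told apart. Summed microglia markers ran from 192 to 246 CPM in sham and from 102 to 157 CPM in stimulated slices of vehicle WT mice, in which Fosl1 and Batf were higher.

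The second question was how AP-1 genes differed between T41B and WT mice. Higher levels in T41B mice were found for members of all the families: in the mean of the 4 combinations of treatment and stimulation, 7 of the 9 genes were higher, 0 were lower, and Fosb and Fosl2 were not called, beside 31.5% of all genes called and 16.5% called higher. The median log2 fold change of the 9 genes was 0.439, against -0.014 over all genes tested. Among sham vehicle slices 2 were higher, where 6.24% of all genes were called, and among stimulated vehicle slices 1, where 5.79% were called. With BD10-2, 3 were higher among sham slices (5.46% of all genes called) and 7 among stimulated slices (10.6% of all genes called). These comparisons use the same samples as those of stimulation. Batch E held only WT mice and batches G and H only T41B mice. Among vehicle mice only batches A and C held both genotypes, so genotype and batch cannot be fully told apart. The mean comparison counts both slices of a mouse as separate samples, so its p-values are too small, and with the mouse as a random block the same 7 genes were called.

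Atf3 had the smallest adjusted p of the 9 genes in the mean genotype comparison. In sham vehicle slices the 4 WT values ended at 29.8 CPM and the 4 T41B values began at 33.7 CPM, with a log2 fold change of 0.91 ± 0.167 (edgeR adjusted p = 0.000696). With BD10-2 it was 0.71 ± 0.173 (0.0108) in sham and 1.04 ± 0.174 (0.000106) in stimulated slices, where WT values ended at 40.2 CPM and T41B values began at 63.9 CPM. Stimulated vehicle slices overlapped, at 39.6 to 54.5 CPM in WT and 46.5 to 69.8 CPM in T41B mice, with 0.37 ± 0.163 (0.215). With batch as a term the sham vehicle difference was 0.62 and its adjusted p was 0.0631. In the mean comparison Atf3 differed by 0.76 ± 0.0847 (3.75e-08), or 0.74 with the mouse as a random block (1.22e-06).

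Batf and Fosl1, the genes with the highest stimulation ratios, were also higher in T41B mice in the mean comparison. Batf differed by 1.22 ± 0.19 (edgeR adjusted p = 1.18e-05; 0.000286 with the mouse as a random block). It was called in sham vehicle slices, at 1.45 ± 0.437 (0.0423), in stimulated vehicle slices, at 1.05 ± 0.317 (0.0447), and in stimulated BD10-2 slices, at 1.15 ± 0.331 (0.0215). Both vehicle groups overlapped, and the vehicle calls were lost with batch as a term (adjusted p = 0.58 and 0.449), in sham slices with the mouse as a random block (0.116), and without single mice (up to 0.244 and 0.153). Both were also lost without the filter on low counts and with 1 library per mouse and stimulation, and that in stimulated slices with only the groups compared. In sham vehicle slices Batf did not pass the filter on low counts with only the groups compared, so it had no test there and Atf3 was the 1 gene called. Fosl1 differed by 0.75 ± 0.142 in the mean comparison (0.000172; 0.00608 with the mouse as a random block), and by 0.446 ± 0.106 with batch as a term (0.00512). Of single combinations it was called in stimulated BD10-2 slices, where WT mice had 16.9 to 20.1 CPM and T41B mice 20.8 to 51.2 CPM, at 0.88 ± 0.265 (0.0277). That call was lost with 1 library per mouse and stimulation and without any 1 of Mouse1564, Mouse1565, Mouse1570, Mouse1571 and Mouse1586 (adjusted p up to 0.118). In sham vehicle, stimulated vehicle and sham BD10-2 slices Fosl1 differed by 0.85 ± 0.312, 0.48 ± 0.251 and 0.78 ± 0.308, and Batf in sham BD10-2 slices by 1.21 ± 0.424, none of them called. With batch as a term Fosl1 differed by 0.336 ± 0.218 in sham vehicle slices and by -0.0378 ± 0.181, the other direction, in stimulated vehicle slices. The call of Batf in stimulated BD10-2 slices was lost without any 1 of Mouse1564, Mouse1565 and Mouse1586 (adjusted p up to 0.168).

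All the JUN genes were higher in T41B mice in the mean comparison. Jun ran from 163 through a median of 189 to 204 CPM in 7 WT sham samples and from 198 through 243 to 310 CPM in 9 T41B sham samples, which overlap only at their edges. Its mean log2 fold change was 0.44 ± 0.0681 (edgeR adjusted p = 1.04e-05), and it was called with BD10-2, at 0.50 ± 0.14 in sham (0.0306) and 0.54 ± 0.14 in stimulated slices (0.0101). With batch as a term the sham call of Jun was lost (adjusted p = 0.0929), and with only the groups compared the stimulated call. The sham call of Jun was also lost without any 1 of Mouse1565, Mouse1571, Mouse1590 and Mouse1592 (up to 0.183) and the stimulated call without any 1 of Mouse1564, Mouse1565 and Mouse1571 (up to 0.0712). Junb differed by 0.52 ± 0.0807 in the mean (1.12e-05) and by 0.72 ± 0.166 in stimulated BD10-2 slices (0.00343), where WT values of 147, 170 and 189 CPM lay below T41B values of 226, 252, 278, 288 and 348 CPM. In stimulated vehicle slices Junb was at 0.51 ± 0.157 with an adjusted p of 0.0517, and 0.0307 with the mouse as a random block. With batch as a term Junb was not called there. Jund differed by 0.29 ± 0.0728 in the mean (0.00261) and by 0.51 ± 0.149 in sham BD10-2 slices (0.0398). The sham call of Jund was lost without any 1 of Mouse1557, Mouse1564, Mouse1565, Mouse1570, Mouse1571, Mouse1590 and Mouse1592 (up to 0.237), and with batch as a term the mean difference was 0.194 ± 0.0778 (0.105). Not called were Jun at 0.36 ± 0.133 in sham and in stimulated vehicle slices, Junb at 0.38 ± 0.157 and 0.46 ± 0.164 in sham vehicle and sham BD10-2 slices, and Jund at 0.32 ± 0.143, 0.04 ± 0.142 and 0.30 ± 0.148 in sham vehicle, stimulated vehicle and stimulated BD10-2 slices.

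Among the FOS genes, Fos was higher in T41B mice by 0.39 ± 0.0823 in the mean comparison (edgeR adjusted p = 0.000618). Vehicle sham slices had 311, 356, 368 and 428 CPM in WT and 443, 477, 501 and 648 CPM in T41B mice, which do not overlap, with 0.50 ± 0.161 (0.0601). There Fos was called with DESeq2 (adjusted p = 0.0327) and, in edgeR, without the filter on low counts (0.0487) or without Mouse1524 (0.024). It was not called there with batch as a term. In stimulated BD10-2 slices the values were 332, 378 and 388 CPM in WT against 448, 470, 518, 573 and 663 CPM in T41B mice, with 0.55 ± 0.169 (0.0332). With batch as a term this last difference was 0.41 and its adjusted p 0.169, so the call was lost. It was also lost without any 1 of Mouse1564, Mouse1565, Mouse1571 and Mouse1586 (adjusted p up to 0.187). Fosl2 was called there too, at 0.43 ± 0.13 (0.0286), with 130, 131 and 152 CPM in WT against 161 to 193 CPM in T41B mice. That call of Fosl2 was lost with 1 library per mouse and stimulation and without any 1 of Mouse1563, Mouse1564, Mouse1565, Mouse1570 and Mouse1586 (adjusted p up to 0.157). Elsewhere Fosl2 was at -0.09 ± 0.125 in sham vehicle, 0.36 ± 0.124 in stimulated vehicle and -0.18 ± 0.128 in sham BD10-2 slices, and Fos at 0.07 ± 0.161 in stimulated vehicle and 0.43 ± 0.168 in sham BD10-2 slices. Fosb was at 0.09 ± 0.206 and -0.24 ± 0.207 in sham and stimulated vehicle slices and at 0.44 ± 0.215 and 0.55 ± 0.217 with BD10-2, called in none. In the mean comparison Fosl2 (0.13 ± 0.0632, adjusted p = 0.115) and Fosb (0.21 ± 0.105, adjusted p = 0.129) were not called.

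**Figure D3:**
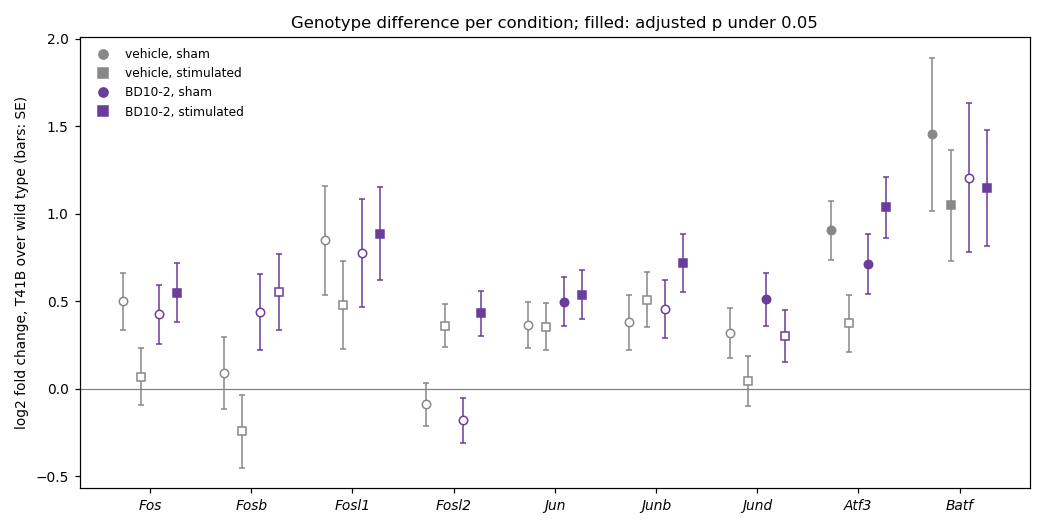
Log2 fold change of T41B over WT mice (y axis, bars show SE) for the 9 AP-1 genes (x axis) in vehicle (grey) and BD10-2 (purple) mice, circles for sham and squares for stimulated slices; filled symbols passed the test at an adjusted p under 0.05. Atf3 and Batf are filled in 3 of 4 comparisons each, and 7 genes are filled in stimulated BD10-2 slices.

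The genotype calls in single combinations rested on few mice, while in the mean comparison 7 to 9 genes were called whichever mouse was left out. In sham vehicle slices 1 gene in place of 2 was called without any 1 of Mouse1509, Mouse1513, Mouse1551 and Mouse1553, and 4 without Mouse1510. In stimulated vehicle slices the single call was lost without any 1 of 6 of the 8 mice, and 2 and 3 genes were called without Mouse1510 and Mouse1524. With BD10-2 the WT groups held 3 mice each. In stimulated slices 2 of the 7 genes (Junb and Atf3) were called without WT Mouse1565 or without T41B Mouse1564, 3 without WT Mouse1586 and 4 without WT Mouse1571, and without any 1 of WT Mouse1565, Mouse1571 and Mouse1590 none of the 3 was called in sham slices. With batch as a term 5 of the 7 genes in the mean comparison were called, and Fos (0.0574) and Jund (0.105) were not. Within 7 combinations of batch and stimulation that held both genotypes, Jun and Junb were higher in T41B mice in 7, Fos, Fosl1, Atf3 and Batf in 6, Fosb in 5, Jund in 4 and Fosl2 in 3. These 7 came from batches A, C, D and I, of which A, C and I gave a sham and a stimulated combination each. The sham and stimulated combinations of a batch largely share mice and are not independent. Outside batch I each set 1 T41B against 1 WT mouse. The share over all genes was not counted. All 6 microglia markers were higher in T41B mice in the mean comparison (median log2 fold change 1.4), with summed levels of 429 to 779 CPM against 192 to 246 CPM in sham vehicle and 510 to 704 CPM against 208 to 257 CPM in sham BD10-2 slices. Of 6 astrocyte markers 5 were higher and of 6 neuron markers 4 were lower. Of 6 choroid plexus markers 1 was higher in sham vehicle slices (median log2 fold change 2.28) and 1 lower in stimulated vehicle slices (-2.58), with 0 called in the mean comparison (0.234). Their part in the genotype differences was not tested.

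The third question was whether BD10-2 changed AP-1 transcripts. Of the 9 genes 0 were called in sham or stimulated slices of either genotype, where 0% of all genes were called by edgeR, with 374, 1093, 430 and 760 genes at an unadjusted p under 0.05 in WT sham, WT stimulated, T41B sham and T41B stimulated slices. DESeq2 called 0, 23, 0 and 0 genes there, none of them an AP-1 gene. In stimulated WT slices edgeR called 6 genes without the filter on low counts, 21 without Mouse1522 and 26 without Mouse1524, and in sham WT slices 1 without Mouse1524, again none an AP-1 gene. In stimulated T41B slices the log2 fold changes were 0.43 ± 0.155 for Atf3, 0.42 ± 0.197 for Fosb and 0.38 ± 0.153 for Fos. Their unadjusted p-values in edgeR were 0.00953, 0.0433 and 0.0204, and the adjusted p was 1 for each. Atf3 lay there at 46.5 to 69.8 CPM with vehicle and at 63.9 to 104 CPM with BD10-2, which overlap. In stimulated WT slices Fosb was at -0.38 ± 0.224 (adjusted p = 0.882). Outside stimulated T41B slices Fosb was also at 0.0043 in sham WT and 0.35 in sham T41B slices, and Fos and Atf3 lay between -0.23 (Atf3 in stimulated WT slices) and 0.22 (Fos in sham WT slices). Fosl1, Fosl2, Jun, Junb, Jund and Batf lay between -0.21 (Fosl1 in stimulated WT slices) and 0.23 (Fosl2 in sham WT slices) in the 4 comparisons. Each batch held 1 treatment, so treatment and batch cannot be told apart.

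The stimulation response itself was compared between genotypes and between treatments. Of the 9 genes 0 were called in any of these 4 comparisons, where 0% of all genes were called by edgeR, with 1683, 847, 337 and 526 genes at an unadjusted p under 0.05 for genotype with vehicle, genotype with BD10-2, treatment in WT and treatment in T41B mice. DESeq2 called 1, 19, 0 and 1 genes, none an AP-1 gene. Without T41B Mouse1592 edgeR called 79 genes for genotype with BD10-2, and without the low-Thy1 library of that mouse 2, again none an AP-1 gene. For genotype with vehicle 5 genes were called with batch as a term and 3 with the mouse as a fixed block. For genotype with BD10-2 it was 6 with batch as a term, 5 with the mouse as a random block and 2 without the filter on low counts, and none of these was an AP-1 gene. For Fosl1 the genotype difference in response was -0.37 ± 0.399 with vehicle and 0.11 ± 0.404 with BD10-2, and the treatment difference was -0.20 ± 0.436 in WT and 0.27 ± 0.362 in T41B mice. With the mouse as a fixed block the Fosl1 values moved to 0.428 ± 0.27 for genotype with BD10-2 and -0.445 ± 0.279 for treatment in WT mice, and with batch as a term to 0.475 ± 0.263 and -0.474 ± 0.267, none of them called. For Batf these were -0.40 ± 0.533, -0.06 ± 0.447, -0.07 ± 0.615 and 0.28 ± 0.456. In the same order Fos had -0.43 ± 0.227, 0.12 ± 0.235, -0.32 ± 0.246 and 0.23 ± 0.216, and Fosb -0.34 ± 0.291, 0.11 ± 0.3, -0.38 ± 0.314 and 0.07 ± 0.276. The JUN genes lay closer to 0, from -0.28 ± 0.202 for Jund (genotype with vehicle) to 0.26 ± 0.229 for Junb (genotype with BD10-2), with Jun between -0.0075 and 0.06. The treatment difference was -0.25 ± 0.19 in WT and -0.09 ± 0.167 in T41B mice for Fosl2, and -0.38 ± 0.252 and 0.47 ± 0.219 for Atf3. These errors are wide, so similar responses are not shown.

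Genes around AP-1 in its pathway were then described in 4 lists. Over all genes tested, 22.2% were higher and 24.6% lower with stimulation in the mean comparison, with a median log2 fold change of -0.034, and 16.5% were higher and 15.1% lower in T41B mice, with a median of -0.014. Of 16 genes known as AP-1 targets, 14 were higher and 1 lower after stimulation in the mean comparison (22.2% and 24.6% of all genes), with a median log2 fold change of 3.05. Mmp3, a matrix metalloproteinase, differed by 7.1 ± 0.409 (edgeR adjusted p = 1.18e-14), from at most 0.197 CPM in a sham slice to 3.81 ± 1.86 CPM in WT vehicle and 9.09 ± 4.01 CPM in T41B vehicle stimulated slices (SD, n = 4 each). With sham counts this near 0, the size of that value depends on the fit. Mmp13 differed by 5.85 ± 0.36, Mmp10 by 5.46 ± 0.405 and the cytokine Lif by 4.01 ± 0.204. The same limit holds for Mmp13, with at most 0.313 CPM in a sham slice, and for Mmp10, with at most 0.0625 CPM. In stimulated slices Mmp10 group means ran from 0.515 to 1.09 CPM. Mmp3, Mmp10 and Mmp13 are among the 14 higher genes and passed the filter on low counts only through stimulated slices. Their calls are thus not independent of that filter. Pdyn, the prodynorphin gene of hippocampal granule cells, fell by 0.38 ± 0.0998 on the log2 scale (0.00226), and the gelatinase gene Mmp9 was at -0.10 ± 0.16 (0.64). Between genotypes 12 of the 16 were higher in T41B mice and 0 lower (16.5% and 15.1% of all genes), with a median of 1.04. Timp1, an inhibitor of metalloproteinases, differed by 2.38 ± 0.266, the cytokine Il6 by 2.18 ± 0.243 and Mmp3 by 1.9 ± 0.628. The Mmp3 value again includes sham counts near 0. Many of these genes also answer to NF-kappaB and other factors, so their levels do not measure AP-1 activity.

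**Figure D4:**
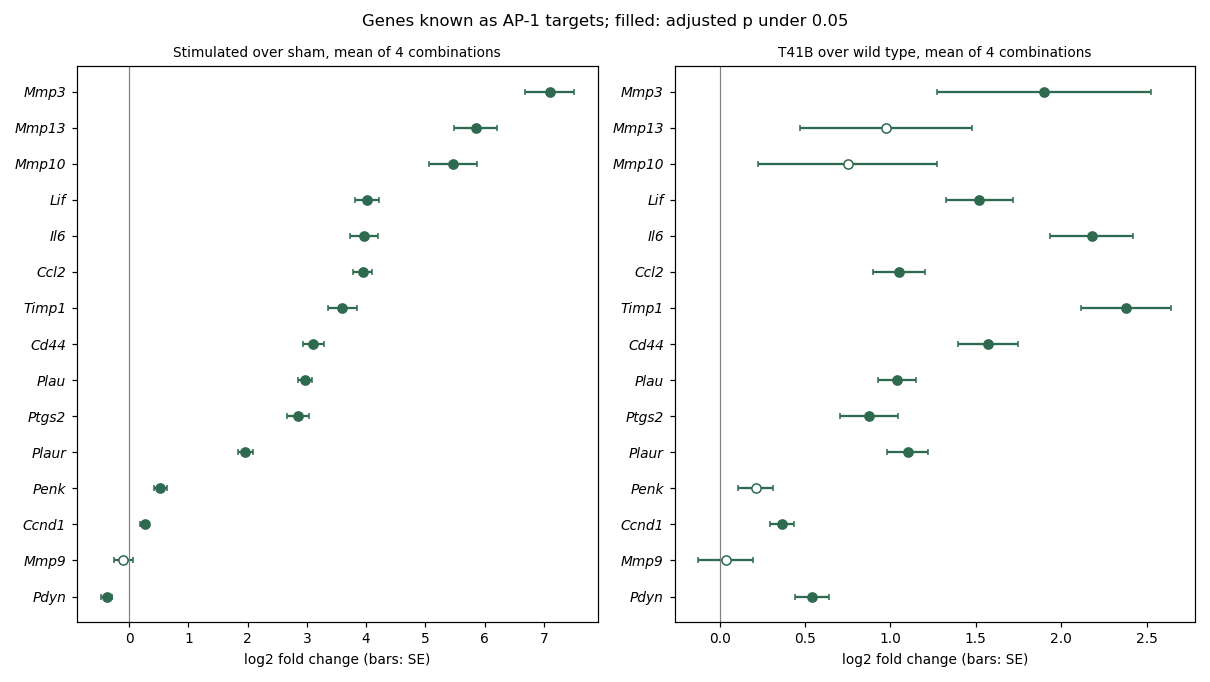
Log2 fold change (x axis, bars show SE) of 15 of the genes known as AP-1 targets (y axis), stimulated over sham on the left and T41B over WT on the right, each the mean of 4 combinations; filled symbols passed the test at an adjusted p under 0.05. In the left panel 13 genes are filled and higher, from Ccnd1 at 0.259 to Mmp3 at 7.1, and in the right panel 11 are.

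Of 12 dimer partners and related bZIP factors, 8 were higher and 3 lower after stimulation, beside 22.2% and 24.6% of all genes, and the median was 0.398. Batf2, a BATF relative, differed by 3.12 ± 0.378 (edgeR adjusted p = 7.6e-08), Atf4, the effector of the integrated stress response, by 0.98 ± 0.0705, its target Ddit3 (CHOP) by 0.96 ± 0.102 and the small MAF gene Maff by 0.55 ± 0.0723. Batf2 lay at 5.24 ± 2.88 CPM in stimulated and 0.202 ± 0.0909 CPM in sham T41B BD10-2 slices (SD, n = 5 each). In WT mice it reached 0.482 ± 0.414 CPM (SD, n = 4) after stimulation with vehicle and 0.478 ± 0.169 CPM (SD, n = 3) with BD10-2, and was called in neither (edgeR adjusted p = 0.111 and 0.144). Outside stimulated T41B slices Batf2 was at most 0.864 CPM. Its passing of the filter on low counts and its mean value thus rest largely on those slices. Between genotypes 6 were higher in T41B mice and 1, Atf2, lower, beside 16.5% and 15.1% of all genes, and the median was 0.253. Batf2 differed there by 2.09 ± 0.4, Maff by 0.70 ± 0.0731 and Mafk by 0.65 ± 0.089. The Batf2 genotype value likewise rests largely on the stimulated T41B slices.

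Of 18 upstream kinases and promoter factors, 5 were higher and 6 lower after stimulation, with a median log2 fold change of -0.0219. These counts are near the shares over all genes, 22.2% and 24.6%. Map3k8 (TPL2), which activates ERK in inflammatory signalling, differed by 1.31 ± 0.119, Map3k1 by 0.86 ± 0.0599 and the SRF partner Elk4 by 0.38 ± 0.047. The JNK genes Mapk8, Mapk9 and Mapk10, whose kinases phosphorylate JUN, fell by 0.23 ± 0.0808, 0.29 ± 0.036 and 0.18 ± 0.0371 on the log2 scale. Between genotypes 5 were higher and 5 lower, beside 16.5% and 15.1% of all genes, with Map3k8 at 1.11 ± 0.12 and Elk3 at 0.62 ± 0.0933. Srf (0.03 ± 0.0572, adjusted p = 0.654) and Creb1 (-0.10 ± 0.0536, adjusted p = 0.132), which act on the Fos promoter, were not called for stimulation.

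Of 8 other immediate-early genes, 3 were higher and 1 lower after stimulation, a number called that is near the 46.8% of all genes. Egr2 differed by 0.77 ± 0.0933, the MAP kinase phosphatase gene Dusp1 by 0.50 ± 0.0651 and Egr3 by 0.36 ± 0.0556, while Egr1 fell by 0.53 ± 0.067 on the log2 scale (edgeR adjusted p = 1.48e-07). Arc, the dendritic activity gene, was at 0.04 ± 0.121 (0.797). In vehicle WT mice Egr1 lay at 351 ± 21.5 CPM in sham and 267 ± 42.3 CPM in stimulated slices (SD, n = 4 each). Between genotypes 3 were higher in T41B mice and 0 lower, beside 16.5% and 15.1% of all genes: Egr2 by 0.49 ± 0.0936, Ier2 by 0.49 ± 0.0878 and Dusp1 by 0.45 ± 0.0655.

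Finally, each AP-1 gene was set beside the 16192 genes averaging at least 1 CPM, by Pearson's r of log2(CPM + 1) over the 32 samples. The samples share the 8 groups, so these values mostly describe the group pattern. Closest to Fosl1 were the chemokine gene Cxcl2 (r = 0.978), Txnrd1 and Edn1 (both 0.977). Closest to Batf were Cd14, a coreceptor for bacterial endotoxin (0.969), the NF-kappaB gene Nfkb2 (0.968) and Rab11fip1 (0.966), and closest to Atf3 were Ctnna1 (0.957), Arpc1b (0.956) and Anxa5 (0.955). Jun was closest to Necap2 (0.923), Plcb3 and Rplp0 (both 0.921), Junb to Gnai2 (0.906), Apoe (0.904) and Tubb2b (0.9), and Jund to Crip2 (0.89), Gm11175 (0.887) and Cdc37 (0.886). Fosl2 was closest to Arhgef26 (0.896), Frmd6 (0.892) and Spry4 (0.885). For Fosb they were Nfatc2 (0.849), Irf2bp2 (0.833) and Prune2 (0.831), and for Fos Ang (0.826), Trp53i13 (0.808) and Idh2 (0.799). Among the 9 genes themselves the highest r was 0.92, between Fosl1 and Batf, followed by 0.91 between Jun and Atf3. After group means were removed these were 0.42 and 0.74. Fosl1 and Fosb ran against each other at -0.67, and at 0.0034 within groups.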

How the data were processed

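RNA was measured in 36 libraries of 18 mice. The authors deposited expected counts per gene. The submitters' processing notes name RSEM 1.3.1, STAR 2.7.6a, cutadapt 1.8.1, featureCounts 1.6 and SAMtools 1.11, and the builds GRCm38.p6 and mm10. The annotation release and strand setting are not given in the sources used here, so reads of overlapping genes may be shared. Libraries with the same mouse and stimulation labels were added, which left 32 samples, and counts were rounded. Genes were kept by filterByExpr (minimum count 10), scaled by TMM and tested in edgeR 4.0.16 (R 4.3.3) in 1 fit with 8 group coefficients, for 18 comparisons, with a self-test on simulated data. CPM uses the TMM-adjusted library size. Coordinates are from GENCODE M21, promoters from RefSeq (GRCm38.p6). Alternatives were RLE scaling, DESeq2 1.42.0, no filter, only the groups compared, a batch term, mouse blocks (limma 3.58.1 for the random one), 1 library per mouse and stimulation, leaving out each of 18 mice and, chosen after seeing the data, leaving out the low-Thy1 library of Mouse1592.

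Slices pair by the mouse numbers in the labels. The deviations of a mouse's 2 slices from their group means correlated at 0.29 on average over 14 pairs (0.053 to 0.55), and the estimated correlation within mice was 0.339. The 9 genes and all lists were chosen with earlier results of these data known. The rule covers all 9 in every comparison, and some values are given as ranges. Of each list the counts are given with up to 4 called genes of largest log2 fold change in the mean comparisons, and for each gene the 3 most alike. Mmp9, Pdyn, Atf2, the JNK genes, Srf, Creb1 and Arc were named after their values were seen. Some listed genes that the rule would name are counted in the lists but not reported here by name.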

Additional observations from a re-analysis of the deposited data

Results flagged for a closer look

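Of 54 combinations of an AP-1 gene and a group of 4 or 5 mice, 4 held a sample that stood apart from the others of its group by Dixon's criterion, which chance meets in about 1 of 20. Fos was 774 CPM in the sham slice of BD10-2-treated T41B Mouse1564, against 502 to 540 CPM in the other 4 mice of the group. Fosl2 was 124 CPM in the stimulated slice of vehicle WT Mouse1513, against 143 to 145 CPM in the others. Fosl2 was 161 CPM in the stimulated slice of BD10-2-treated T41B Mouse1592, against 187 to 193 CPM, and its 2 libraries, which differ in Thy1, gave 135 and 183 CPM. Jund was 141 CPM in the stimulated slice of BD10-2-treated T41B Mouse1563, against 181 to 189 CPM.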

How the results depend on the processing

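Of 2707 log2 fold changes of the 9 genes under the alternatives, 2611 kept their direction and their side of the threshold or were called in neither fit, 68 lost and 28 gained a call, and no called value reversed. Of those called in neither fit, 131 had the other sign. The number of AP-1 genes called changed by over 1.5 times in the single genotype comparisons. In sham vehicle slices, where 2 were called, it was 4 with DESeq2, 1 with only the groups compared, 0 with the batch term, 1 with the mouse as a random block, and 1 with 1 library per mouse and stimulation. In stimulated vehicle slices, where 1 was called, it was 2 with RLE scaling, 3 with DESeq2, 0 with the batch term, 2 with the random mouse block, 0 with 1 library per mouse and stimulation, and 2 without the low-Thy1 library. The cause was not tested. With 1 mouse left out the number ran from 3 to 4 for stimulation in WT vehicle, 4 to 4 in T41B vehicle, 2 to 3 in WT BD10-2, 5 to 6 in T41B BD10-2 and 6 to 6 in the mean. For genotype it ran from 1 to 4 in sham vehicle, 0 to 3 in stimulated vehicle, 0 to 3 in sham BD10-2, 2 to 7 in stimulated BD10-2 and 7 to 9 in the mean. For treatment and for the differences in response it was 0.

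With the mouse as a fixed block, stimulation called 4, 4, 3 and 6 AP-1 genes in WT vehicle, T41B vehicle, WT BD10-2 and T41B BD10-2 mice and 6 in the mean. With the random mouse block the numbers were the same, and for genotype they were 1, 2, 3, 7 and 7. The block changed no call of an AP-1 gene beyond Fosb in WT vehicle stimulation, Batf in sham vehicle genotype (adjusted p = 0.116) and Junb in stimulated vehicle genotype. Over all genes, the count for stimulation in WT vehicle mice went from 2397 to 3902 with the fixed block, 4138 with the random block and 1581 with only the groups compared. In T41B vehicle mice 4200 became 6307 with the random block and 2581 with only the groups compared, and in WT BD10-2 mice 1727 became 3118 with the random block. For genotype, 1215 in sham vehicle became 352 with the batch term and 537 with only the groups compared, 1063 in sham BD10-2 became 1731 and 2056 in stimulated BD10-2 became 1229 with only the groups compared, and 6141 in the mean became 2579 with the batch term. With 1 mouse left out, the count over all genes moved by over 1.5 times in 7 comparisons of stimulation or genotype. For stimulation it fell to 1238 without Mouse1509, 1477 without Mouse1513 and 1589 without Mouse1524 in WT vehicle, 2648 without Mouse1551 in T41B vehicle, and 758, 890 and 915 without Mouse1565, Mouse1571 and Mouse1590 in WT BD10-2 mice. For genotype it was 556, 608, 709 and 795 without Mouse1551, Mouse1509, Mouse1553 and Mouse1513 and 2067 without Mouse1510 in sham vehicle, 678 without Mouse1551 in stimulated vehicle, 485, 577 and 598 without Mouse1590, Mouse1565 and Mouse1571 in sham BD10-2, and 1054 and 1364 without Mouse1565 and Mouse1564 in stimulated BD10-2 slices. Depth limits Batf, whose sham samples hold 1 to 30 counts.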
